A study of Homo sapiens with 12 samples.

Results

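The genes described here are the nuclear genes for subunits of oxidative phosphorylation, the respiratory chain and ATP synthase of the mitochondrion. They were chosen by name alone: rows of the deposited gene table called NDUFA, NDUFB, NDUFC, NDUFS or NDUFV with a number, SDHA to SDHD, any UQCR, the families COX4 to COX8, and any ATP5, leaving out hyphenated read-through names and numbered pseudogenes. The rule found 88 rows of 58174, which carry 87 symbols because SDHD is listed under a second gene ID as well. By name, 38 belonged to complex I, 5 to complex II, 9 to complex III, 17 to complex IV and 19 to complex V. The table keeps older symbols, such as ATP5A1 and ATP5B for the alpha and beta subunits of ATP synthase and ATP5I for its subunit e. NDUFA4 was counted with complex I by its name, although it is now regarded as a subunit of complex IV. NDUFA4L2, ATP5S and ATP5SL were kept by the rule but are not structural subunits. The rule also kept COX7A2L, a factor that joins complexes III and IV, and ATP5J2LP, which is annotated as a processed pseudogene.

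The cells were H520 (NCI-H520), a cell line established from a human squamous carcinoma of the lung, and mRNA libraries were sequenced from 12 samples in 4 groups of 3. One group received BLU9931 at 1 µM, an inhibitor of the receptor tyrosine kinase FGFR4. Another received palbociclib at 1 µM, an inhibitor of the cell cycle kinases CDK4 and CDK6, and a further group received both agents together, the combination. Treatment lasted 72 h, and the fourth group was labelled control, with no statement in the labels of what those cells received. All groups are the same single cell line, and separate cultures are not named for the 3 libraries in each group. The p-values therefore measure only the spread between these libraries, which may be technical.

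Oxidative phosphorylation passes electrons from NADH (complex I) and succinate (complex II) through coenzyme Q to complex III, and by cytochrome c to complex IV, which reduces oxygen. Complexes I, III and IV pump protons across the inner mitochondrial membrane, and complex V, the ATP synthase, uses the returning protons to make ATP. Most subunits are encoded in the nucleus, while a core set in complexes I, III, IV and V is encoded in mitochondrial DNA, and complex II is wholly nuclear.

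Libraries held 21730722 to 35786607 counts. For a single gene, CPM is its count divided by the TMM-scaled size of the library, used here for comparing libraries, and the deposited TPM, which is scaled to transcript length as well, is used where genes are set beside each other. Palbociclib library 3 and control library 1 lay apart from the other 10 on the second principal component of all tested genes (75.2 and 72.5, against -35.8 to 5.46), and counts of calls, medians and summed levels over the members are given without them as well. The label of squamous carcinoma was checked against 14 marker genes. SOX2 averaged 568, 577, 565 and 501 CPM in BLU9931, palbociclib, combination and control cells and PERP averaged 171, 170.1, 206 and 214 CPM in the same groups, but TP63, KRT5, KRT14, DSG3 and PKP1 averaged below 1 CPM in every group and KRT17 was at 0 in every library. Summed markers of fibroblasts lay between 3.76 and 14.8 CPM and those of leukocytes between 1.15 and 3.93 CPM across the libraries. The 7 neuroendocrine markers summed lower in palbociclib libraries, at 47.3 to 51.9 CPM, than in control cells, at 69.2 to 81.8 CPM. They were at 84.4 to 108.9 CPM in BLU9931 cells and 55.6 to 71.8 CPM in combination cells, and their part in the results was not tested.

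Of the 88 members, 80 had enough counts to be tested. The 8 that did not were the tissue isoforms COX4I2, COX6A2, COX6B2, COX7A1, COX7B2 and COX8C, with ATP5J2LP and ATP5L2, none with more than 15 counts in a library. For these tissue isoforms, the widely expressed relatives carried the counts. COX6A1, a small complex IV subunit, averaged 1109, 797, 896 and 907 TPM in BLU9931, palbociclib, combination and control cells, while COX6A2, its heart and muscle form, was at 0 in all 12 libraries. COX4I1, a subunit that helps regulate complex IV, averaged 218, 184, 189 and 173 TPM in the same 4 groups. The 3 genes that encode an identical mature c subunit of the ATP synthase rotor were all expressed: ATP5G2 averaged 161, 129.5, 161 and 129.6 TPM, ATP5G1 averaged 137, 129, 172 and 119.6 TPM, and ATP5G3 averaged 104, 78.6, 79.9 and 89.7 TPM in those groups.

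Levels within a complex were far from equal. In control cells, NDUFS5, an accessory subunit of complex I, had the highest mean of all members at 1681 ± 167 TPM (SD, n = 3), and NDUFS1, the largest core subunit of the same complex, averaged 49.0 ± 8.75 TPM. In complex II, SDHB averaged 207 ± 8.98 TPM and SDHC 40.5 ± 2.76 TPM in the same cells (SD, n = 3).

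BLU9931 alone moved no member past the threshold, an adjusted p under 0.05 over all 20612 tested genes. By edgeR's quasi-likelihood test 0 of 80 members were called, where 0.18% of all tested genes were called. At an unadjusted p under 0.05 there were 12 members, where 3347 of the 20612 tested genes passed the same cut, and limma called 0. DESeq2 also called 0 members, where it called 2.86% of all genes. The libraries of both groups did not overlap for 34 members, 16 of them higher with BLU9931, where 31.6% of all tested genes did not overlap. The median log2 change over the members was -0.01, beside 0.00 over all tested genes, and 0.01 beside 0.01 without palbociclib 3 and control 1. SDHB, the subunit that results below turn on, differed by -0.07 on the log2 scale (95% interval -0.26 to 0.12).

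Under palbociclib alone, more members fell than rose. Of the 80 tested members 1 rose and 11 fell against control, 15% of them, where 20.6% of all tested genes were called, 10% rising and 10.5% falling. The median log2 change was -0.13 over the members, with 60 fitted below 0 and 20 above, beside 0.01 over all tested genes. Without palbociclib 3 and control 1, 81 members could be tested and the median was again -0.13, with 61 below 0 and 20 above, beside 0.00 over all genes. The fallers came from every complex: NDUFA6, NDUFA9, NDUFB6 and NDUFS6 of complex I, SDHB of complex II, UQCRFS1 and UQCRH of complex III, COX5A of complex IV, and ATP5B, ATP5H and ATP5I of complex V. The libraries of both groups did not overlap for 27 members, 24 lower and 3 higher in palbociclib cells, where 32% of all tested genes did not overlap. Leaving out palbociclib library 1 left 7 members called, and fitting the palbociclib and control libraries by themselves left 3. For these fits, and for others below without such a share beside them, the share of all genes called is not given here. Leaving out control 1 and palbociclib 3 gave 3 rises and 18 falls, where 28.6% of all genes were called.

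The combination moved members in both directions. Of the 80 tested, 3 rose and 7 fell against control, 12.5% of them, where 31.7% of all tested genes were called, 15.4% rising and 16.3% falling. The libraries did not overlap for 31 members, 17 of them higher in combination cells, where 48.4% of all tested genes did not overlap. The median log2 change was 0.00, with 40 fitted above 0 and 40 below, beside 0.03 over all tested genes. Without palbociclib 3 and control 1 it was -0.03, beside 0.02. NDUFA6, NDUFA9, NDUFB6, NDUFS6, SDHB, COX5A and ATP5I fell against control in combination cells as in palbociclib cells. NDUFA4 and UQCR11 were among the members that rose in combination cells. These comparisons share the same 3 control libraries. Scaled to library totals in place of TMM, 8 members rose and 4 fell in the combination, where 32.4% of all genes were called. Leaving out any 1 of the 3 combination libraries left 6 members called, and leaving out control 1 and palbociclib 3 gave 9 rises and 12 falls, where 38.8% of all genes were called.

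**Figure D1:**
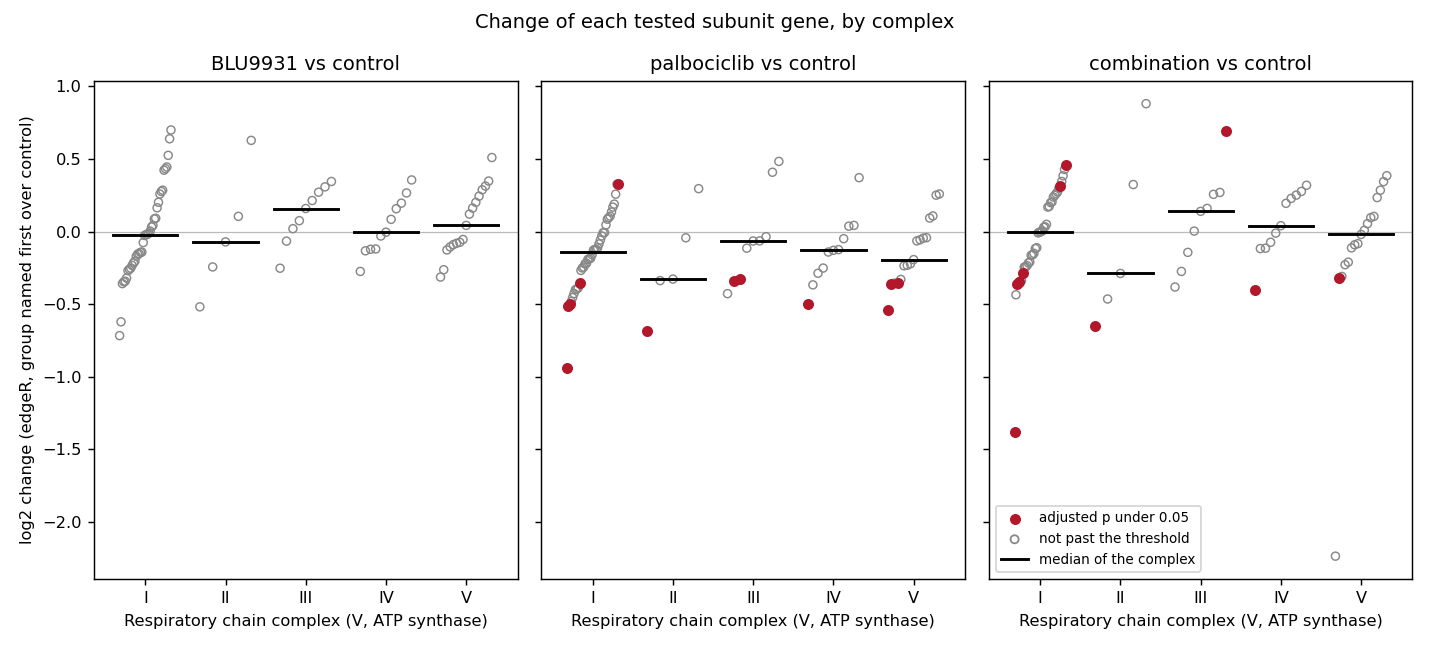
Log2 change of each tested member (points, sorted within each complex) for BLU9931, palbociclib and the combination, each over control, by complex on the horizontal axis; filled points passed an adjusted p of 0.05, and bars are the median of the complex. No point is filled for BLU9931, 12 are filled for palbociclib, 11 of them below 0, and 10 are filled for the combination.

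Differences among the complexes were not tested. For palbociclib against control the median log2 change was -0.14 over the 38 tested members of complex I, -0.33 over the 5 of complex II, -0.06 over the 9 of complex III, -0.13 over the 11 of complex IV and -0.19 over the 17 of complex V. For the combination against control the medians were 0.00 in complex I, -0.29 in complex II, 0.14 in complex III, 0.04 in complex IV and -0.02 in complex V. Complex II thus had the lowest median in both comparisons. A median over 5 rows is the value of a single row, however. One of the 5 is the second gene ID of SDHD, which overlaps SDHD and held only 193 counts over all libraries. Without palbociclib 3 and control 1 the medians of complex II were -0.22 and -0.34, and those of complexes I, III, IV and V were -0.15, -0.04, -0.16 and -0.10 for palbociclib and -0.04, 0.10, -0.06 and -0.08 for the combination. Calls against control in palbociclib cells numbered 1 rise and 4 falls in complex I, 1 fall in complex II, 2 in complex III, 1 in complex IV and 3 in complex V. In combination cells they numbered 2 rises and 4 falls in complex I, 1 rise in complex III, and 1 fall each in complexes II, IV and V.

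SDHB, the iron-sulfur subunit of succinate dehydrogenase that carries electrons towards coenzyme Q, had the smallest adjusted p of the members against control under palbociclib and under the combination. It lies on chromosome 1, minus strand (GRCh38, chr1:17018722-17054170). Its level was 117, 109 and 115 CPM in BLU9931 cells, 73.1, 77.2 and 72.6 CPM in palbociclib cells, 73.5, 74.9 and 79.5 CPM in combination cells, and 124, 117 and 118 CPM in control cells. All 6 libraries with palbociclib lay below all 6 without it. Against control SDHB fell by 0.68 ± 0.09 on the log2 scale in palbociclib cells (± SE, adjusted p = 0.000272) and by 0.65 ± 0.09 in combination cells (adjusted p = 0.000164). Between the combination and palbociclib alone the difference was 0.03 (95% interval -0.15 to 0.22). Both calls stood under all 24 alternative settings.

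No other subunit of succinate dehydrogenase was called against control, and for none did every library with palbociclib lie below every library without it. SDHA, the flavoprotein that oxidises succinate, was at 94.9, 85.4 and 65.3 CPM in palbociclib cells, 88.6, 74.7 and 90.9 CPM in combination cells, and 88.9, 117 and 105 CPM in control cells. Both groups overlapped the control libraries, through control 1 alone, and neither difference passed (log2 -0.34 ± 0.15, adjusted p = 0.148, and -0.29 ± 0.15, adjusted p = 0.18). SDHC, a membrane anchor of the complex, was at 133, 119 and 125 CPM in BLU9931 cells, 134, 123 and 176 CPM in palbociclib cells, 188, 190.4 and 179 CPM in combination cells, and 165, 140.4 and 141 CPM in control cells. The combination libraries were the highest of the 12. SDHC rose in the combination against BLU9931 alone (log2 0.57 ± 0.13, adjusted p = 0.00725), but on the deposited TPM, tested with limma, its adjusted p was 0.0889. SDHD, the other anchor, was called in no comparison. Its level was 72.2, 70.6 and 44.7 CPM in BLU9931 cells and 68.8, 72.0 and 73.3 CPM in palbociclib cells. Combination cells had 83.1, 70.5 and 41.1 CPM, and control cells 106, 77.5 and 84.45 CPM. Every BLU9931 and palbociclib library was thus below every control library, while the combination libraries overlapped them. Summed over complex II, the deposited level was 439 ± 34.9, 361 ± 32 and 367 ± 32.9 TPM in BLU9931, palbociclib and combination cells, against 469.9 ± 17.7 TPM in control cells (SD, n = 3 each). Every palbociclib and combination library was below every control library in that sum. SDHB is part of it, with means of 135 and 138 TPM in palbociclib and combination cells, against 207 TPM in control cells. The means of SDHA were 74.9 and 77.8 TPM, against 93.3 TPM, and those of SDHD 111 and 102 TPM, against 128 TPM. SDHC averaged 38.4 and 46.5 TPM, against 40.5 TPM, so that it was higher in the combination.

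NDUFA6, an accessory subunit of the LYR family at the matrix side of complex I, had the largest fall of the called members. It lies on chromosome 22, minus strand (GRCh38, chr22:42085525-42090955). Its level was 35.9, 34.4 and 34.1 CPM in BLU9931 cells, 37.1, 24.4 and 22.2 CPM in palbociclib cells, 19.1, 20.5 and 22.1 CPM in combination cells, and 63.4, 59.4 and 37.7 CPM in control cells. Control library 3 sat just above the highest palbociclib library, while all combination libraries were below every library of the other groups. NDUFA6 fell by 0.94 ± 0.22 on the log2 scale in palbociclib cells (adjusted p = 0.0104) and by 1.38 ± 0.22 in combination cells (adjusted p = 0.000635), against control. The palbociclib call ended without control 1 and palbociclib 3 (adjusted p = 0.0509), and the combination call stood under all 24 alternatives. The gene overlaps NDUFA6-AS1, named as its antisense RNA, and the sources used here do not say whether counting used strand. The same limit holds, among other members, for NDUFB6, which overlaps SMIM27, ATP5I (MYL5), NDUFC1 (NAA15), ATP5H (KCTD2) and NDUFS7 (AC005329.1). It also holds for SDHD (TIMM8B), NDUFS1 (EEF1B2) and COX4I1 (EMC8). ATP5J2 overlaps PTCD1 on the same strand, so strand use alone would not separate their reads. SDHB, COX5A and NDUFS6 overlap no other gene that has a total of at least 100 counts.

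More accessory subunits of complex I fell in both groups against control. NDUFB6, in the membrane arm, was at 30.3, 26.8 and 30.8 CPM in palbociclib cells, 33.8, 33.0 and 31.1 CPM in combination cells, and 41.7, 41.8 and 40.9 CPM in control cells, and its log2 changes were -0.50 ± 0.10 (adjusted p = 0.00459) and -0.35 ± 0.10 (adjusted p = 0.0199). NDUFS6, a zinc-binding subunit of the peripheral arm, was at 28.7, 29.98 and 29.3 CPM in palbociclib cells, 31.9, 29.6 and 36.6 CPM in combination cells, and 41.9, 40.9 and 42.8 CPM in control cells. All 6 palbociclib and combination libraries were below the control libraries for both genes. The NDUFS6 changes were -0.51 ± 0.11 (adjusted p = 0.00761) and -0.36 ± 0.11 (adjusted p = 0.0299). In the combination, the NDUFS6 call ended without any 1 of control 2, control 3, combination 1 or combination 2 (adjusted p between 0.0567 and 0.114), and the NDUFB6 call ended without combination 3 (adjusted p = 0.0578). With GC offsets the NDUFB6 change in the combination was -0.20 (adjusted p = 0.171).

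NDUFA9, a subunit of complex I related to short-chain dehydrogenases, fell in the counts but not in the deposited TPM. It was named after its values were seen. In counts its log2 change was -0.36 ± 0.09 in palbociclib cells (adjusted p = 0.0181) and -0.29 ± 0.09 in combination cells (adjusted p = 0.0332), against control. Its mean TPM was 36.0 in palbociclib cells, 35.1 in combination cells and 35.7 in control cells, and limma on log2(TPM + 1) gave 0.00 and -0.02. Leaving out control 1 ended both count calls (adjusted p of 0.0534 and 0.07), and leaving out any 1 combination library ended the combination call (adjusted p between 0.0638 and 0.0691).

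The start regions of these fallers are shown because 3 of the 7 that fell in both groups, NDUFA6, NDUFA9 and SDHB, hold the letters AAGATGGC, the core of the motif bound by YY1, just after the start that RefSeq gives. The sequences are from RefSeq (GRCh38.p14), read 5′ to 3′ on the gene's strand, with the motif in capitals. Counted from the RefSeq start, the motif begins at base 25 in NDUFA6 and at base 10 in NDUFA9 and SDHB. The deposited table places the start of each of these genes further upstream, so the motif lies deeper inside the gene by that annotation. The windows are chr22:42090729-42090758 (minus strand), chr12:4649113-4649142 (plus strand) and chr1:17054004-17054033 (minus strand).
NDUFA6: gatgctttggcAAGATGGCggggagcggcg
NDUFA9: gattgtgggaaAAGATGGCggctgccgcac
SDHB: cgtcaggagccAAGATGGCggcggtggtcg

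The same letters also stood in members that were not called. Promoter windows of 250 bases before to 50 after the start were at hand for 63 of the 80 tested members, the first listed for each gene, and motifs were searched on both strands. AAGATGGC was in 17.5% of them and in 3.03% of 27305 promoters of all genes; it was in 3 of the 11 windows of members called against control under palbociclib or the combination (27.3%) and in 8 of the 52 others (15.4%). The ETS core CCGGAAGT was in 14.3% of member windows and 4.44% of all promoters. It was in 3 of the 11 called windows (27.3%) and in 6 of the 52 others (11.5%). The palindromic core motif of NRF1 was in 6.35% and 1.36%, with none of its 4 member windows among the called members. The E2F letters TTTCCCGC or TTTGGCGC were in 7.94% and 2.31%, with 1 of the 11 called windows and 4 of the 52 others. Differences between called and other windows were not tested. A match shows only that these letters are present; AAGATGGC contains ATG, and whether a match is the start codon was not tested.

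The ETS letters stood in members that moved in opposite directions. UQCR11, which rose in the combination, and UQCRH, which fell in palbociclib cells, each hold the ETS core before the RefSeq start. It begins 117 bases before that start in UQCR11, on the gene's strand, and the stretch is shown on that strand (GRCh38.p14, chr19:1605526-1605625, minus strand). In UQCRH it begins 47 bases before the RefSeq start on the opposite strand, a place that the deposited table counts as inside the gene.
UQCR11: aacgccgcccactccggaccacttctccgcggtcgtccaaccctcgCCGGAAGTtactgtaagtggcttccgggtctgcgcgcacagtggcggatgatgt

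The core subunits NDUFV1 and NDUFS7 of complex I were called against control in neither group. NDUFV1, which binds NADH through its flavin, was at 92.1, 87.0 and 93.0 CPM in BLU9931 cells, 63.6, 60.5 and 45.1 CPM in palbociclib cells, 61.6, 60.1 and 66.7 CPM in combination cells, and 56.5, 81.7 and 84.9 CPM in control cells. Control library 1, at 56.5 CPM, lay within the range of the palbociclib libraries. NDUFS7, which carries the last iron-sulfur cluster before coenzyme Q, was at 60.4, 55.0 and 76.995 CPM in combination cells, against 38.1, 78.9 and 74.7 CPM in control cells, a log2 change of 0.01 ± 0.31 that became -0.33 with offsets for GC content (adjusted p = 0.00366).

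COX5A, a subunit of complex IV at the matrix side that binds a thyroid hormone metabolite, fell in both groups. It lies on chromosome 15, minus strand (GRCh38, chr15:74919791-74938168). Its level was 132, 122 and 128 CPM in BLU9931 cells, 96.7, 101 and 96.5 CPM in palbociclib cells, 105, 104 and 106 CPM in combination cells, and 143, 134 and 138 CPM in control cells. All 6 libraries with palbociclib were below all 6 without it, as for SDHB. COX5A fell by 0.50 ± 0.08 on the log2 scale in palbociclib cells (adjusted p = 0.0014) and by 0.40 ± 0.08 in combination cells (adjusted p = 0.00286), and both calls stood under all 24 alternatives. No other member counted with complex IV was called against control. COX8A, a small subunit of the complex, was at 99.4, 105 and 51.0 CPM in palbociclib cells, 92.7, 102 and 110.1 CPM in combination cells, and 67.2, 133 and 129.6 CPM in control cells, with palbociclib 3 and control 1 the lowest of their groups.

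ATP5I, subunit e of ATP synthase, which takes part in joining the enzyme into dimers, fell in both groups against control. Its level was 67.5, 65.3 and 60.7 CPM in palbociclib cells, 76.8, 71.0 and 78.0 CPM in combination cells, and 91.2, 97.0 and 93.7 CPM in control cells. Each palbociclib library was below each combination library, and these were below each control library. The log2 change was -0.54 ± 0.10 in palbociclib cells (adjusted p = 0.00255), which stood under all 24 alternatives. It was -0.32 ± 0.10 in combination cells (adjusted p = 0.0264), which ended without any 1 of control 2, control 3, combination 1 or combination 2 (adjusted p between 0.0601 and 0.0984). The difference between the combination and palbociclib alone was 0.22 (95% interval 0.01 to 0.44, adjusted p = 0.298).

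Of the catalytic head of ATP synthase, ATP5B, the beta subunit that holds the catalytic sites, fell in palbociclib cells and was at 194, 215 and 173 CPM there, against 229, 257 and 261 CPM in control cells. The palbociclib libraries were all below the control libraries (log2 -0.36 ± 0.11, adjusted p = 0.0386). The call ended without any 1 of control 2 or 3, BLU9931 1, 2 or 3, palbociclib 1 or 3, or combination 2 (adjusted p between 0.0508 and 0.119). ATP5A1, the alpha subunit that pairs with it, was at 344, 337 and 326 CPM in palbociclib cells, against 341, 299 and 294 CPM in control cells, and these overlapped. ATP5H, subunit d of the peripheral stalk, named after its values were seen, fell in palbociclib cells (log2 -0.35 ± 0.10, adjusted p = 0.0234). That call ended without control 1 (adjusted p = 0.0719), without palbociclib 1 (0.0526) or without palbociclib 2 (0.0505).

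**Figure D2:**
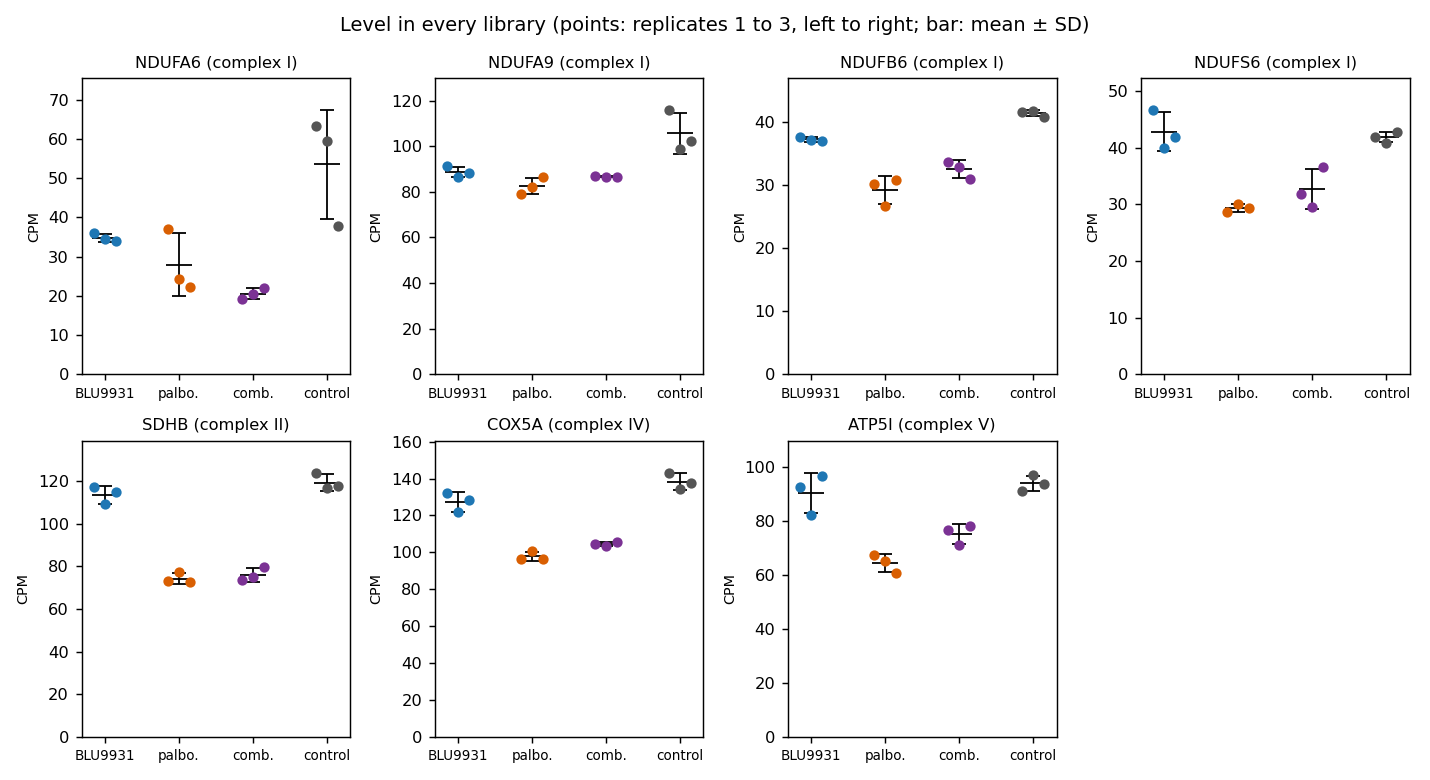
CPM (vertical axis, from 0) of the 7 members that fell against control under both palbociclib and the combination, in BLU9931, palbociclib, combination and control cells; points are libraries 1 to 3 and bars the mean ± SD. For SDHB and COX5A the libraries with palbociclib lie below all others, and control library 3 of NDUFA6 lies at 37.7 CPM beside 63.4 and 59.4 CPM.

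In complex III, UQCRFS1, the Rieske iron-sulfur protein, was at 79.9, 84.7 and 73.6 CPM in palbociclib cells, against 93.1, 104 and 104 CPM in control cells (log2 -0.34 ± 0.11, adjusted p = 0.0446). UQCRH, the hinge protein beside cytochrome c1, was at 70.9, 68.8 and 67.2 CPM in palbociclib cells, against 91.8, 85.8 and 81.8 CPM in control cells (log2 -0.33 ± 0.10, adjusted p = 0.0469). Their groups did not overlap, but each call ended under 17 of the 24 alternatives. For UQCRFS1 these include leaving out control 2 or 3, BLU9931 3 or any 1 palbociclib or combination library (adjusted p up to 0.12), and for UQCRH any 1 control or palbociclib library, BLU9931 1 or 3, or combination 1 or 3 (adjusted p up to 0.119). Reads of UQCRH can also be shared with its intronless copy UQCRHL, which was at 2.38 to 3.96 CPM across the libraries.

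Among the rises of the combination, NDUFA4 was at 137, 126 and 131 CPM in BLU9931 cells, 141, 138 and 146 CPM in palbociclib cells, 169, 159.9 and 168 CPM in combination cells, and 134, 135 and 131 CPM in control cells. The 3 combination libraries were the highest of the 12. NDUFA4 rose by 0.31 ± 0.08 on the log2 scale against control (adjusted p = 0.0105) and by 0.33 ± 0.08 against BLU9931 alone (adjusted p = 0.00855). Against palbociclib alone its change was 0.23, and the adjusted p was 0.172. The call against control ended without combination 3 (adjusted p = 0.0547), and that against BLU9931 without BLU9931 2 (adjusted p = 0.0522) or with GC offsets (adjusted p = 0.113). Without a filter on low counts both ended (adjusted p of 0.062 and 0.0586).

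UQCR11, the smallest subunit of complex III, was at 80.9, 72.6 and 81.4 CPM in BLU9931 cells, 93.1, 98.9 and 53.5 CPM in palbociclib cells, 96.4, 88.9 and 113 CPM in combination cells, and 42.7, 72.0 and 70.0 CPM in control cells. Combination libraries were above every control library, and control 1 and palbociclib 3 were the lowest of all 12. Its log2 change for the combination against control was 0.69 ± 0.24 (adjusted p = 0.0452). That call ended when any 1 library was left out except palbociclib 3 (adjusted p between 0.0555 and 0.161), while with both control 1 and palbociclib 3 left out the change was 0.47 (adjusted p = 0.00435).

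The combination was also set against each single agent. Against BLU9931 alone, 6 members rose and 9 fell, 18.8% of the 80, where 27% of all tested genes were called, 13.3% rising and 13.7% falling. NDUFA4, NDUFA8, NDUFB5, SDHC and COX7A2 were among those that rose, and NDUFA6, NDUFC1, NDUFS6, NDUFV1, SDHB, UQCRC1, UQCRH, COX5A and ATP5J2 fell. NDUFB5, an accessory subunit of the complex I membrane arm, was at 60.1, 65.9 and 57.6 CPM in combination cells, against 42.5, 39.0 and 40.0 CPM in BLU9931 cells. It rose by 0.60 ± 0.14 on the log2 scale (adjusted p = 0.00773), which stood under all 24 alternatives, and its change for the combination against control was 0.25 (adjusted p = 0.191).

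NDUFC1, a small subunit of the same arm, was at 21.8, 19.7 and 21.5 CPM in combination cells, against 29.5, 24.8 and 31.0 CPM in BLU9931 cells (log2 -0.44 ± 0.12, adjusted p = 0.0179). UQCRC1, a core protein of complex III, was at 37.5, 36.2 and 43.5 CPM in combination cells, against 65.5, 57.4 and 54.4 CPM in BLU9931 cells (log2 -0.60 ± 0.20, adjusted p = 0.0441). NDUFV1, with the values given above, fell by 0.53 ± 0.17 (adjusted p = 0.0339). The groups did not overlap for 40 of the 80 members, 20 higher and 20 lower in combination cells, where 52.6% of all tested genes did not overlap. Without 1 library the calls numbered 6 (without BLU9931 1 or combination 2) to 21 (without palbociclib 3), 7 without BLU9931 3 or combination 1, and 9 without BLU9931 2. Without control 1 and palbociclib 3, 15 members rose and 20 fell, where 41.2% of all genes were called. SDHB and NDUFB5 stood in every such fit. COX7A2 ended without any 1 BLU9931 or combination library (adjusted p between 0.0553 and 0.119), and ATP5J2, named after its values were seen, without any 1 BLU9931 library, combination 1 or 2, or control 2 or 3 (adjusted p between 0.0521 and 0.129). NDUFA6 and COX5A ended without combination 1 or 2, and also without BLU9931 1 or 2 for NDUFA6 and BLU9931 1 or 3 for COX5A (adjusted p between 0.0518 and 0.0756). NDUFS6 ended without BLU9931 1, combination 1 or combination 2 (adjusted p between 0.0672 and 0.0843), UQCRH without BLU9931 1, BLU9931 3 or combination 2 (between 0.0729 and 0.0922), and NDUFA8 without BLU9931 2, BLU9931 3 or combination 1 (between 0.0502 and 0.0655). NDUFC1 ended without BLU9931 1, BLU9931 3 or combination 2 (adjusted p between 0.0512 and 0.072), NDUFV1 without any 1 BLU9931 or combination library (adjusted p between 0.051 and 0.106), and UQCRC1 without any 1 of those or control 2, control 3 or palbociclib 2 (adjusted p between 0.052 and 0.136).

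Against palbociclib alone, edgeR called 0 of the 80 members in the combination, where 3.82% of all tested genes were called. By the same test 14 members had an unadjusted p under 0.05, where 3200 of the 20612 tested genes did. With limma 0 were called, and DESeq2 called 2, where it called 6.38% of all genes. Of the 80 fitted changes 69 were above 0, with a median of 0.16 on the log2 scale, beside 0.00 over all tested genes. Without palbociclib 3 and control 1, 57 of 81 were above 0 and the median was 0.10, beside 0.00. The libraries did not overlap for 21 members, 19 of them higher in combination cells, where 21.6% of all genes did not overlap. The member with the smallest p was COX7A2, the widely expressed form of a small complex IV subunit, at 62.4, 60.1 and 61.9 CPM in combination cells, against 49.7, 47.2 and 50.9 CPM in palbociclib cells (log2 0.32, adjusted p = 0.11). Leaving out palbociclib 3 gave 1 call. Without palbociclib 3 and control 1, NDUFA4, NDUFA5, SDHC, UQCRB and COX7A2 were called, all higher in the combination, where 9.69% of all genes were called and 3.87% rose.

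The interaction, the log2 change under both agents less the changes under each agent alone, called 0 members by edgeR, where 1.59% of all tested genes were called. It had 13 members at an unadjusted p under 0.05, where 2937 of the 20612 tested genes passed the same cut. With limma 0 were called, and DESeq2 called 3, where it called 4.07% of all genes. The median was 0.13, beside -0.02 over all genes (0.11 and -0.02 without palbociclib 3 and control 1). SDHC had the smallest p (log2 0.61, 95% interval 0.21 to 1.01, adjusted p = 0.148). Without palbociclib 3 there were 3 calls. Without palbociclib 3 and control 1 there were 8 calls, all positive, where 10% of all genes were called and 4.65% were positive.

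Summed over all members, the deposited level was 13003 ± 585 TPM in BLU9931 cells, 11526 ± 952 TPM in palbociclib cells and 12590 ± 375 TPM in combination cells, against 12585 ± 184 TPM in control cells (SD, n = 3 each). Complex I made up 4793 ± 273, 4477 ± 266 and 4869 ± 175 TPM, against 4842 ± 104 TPM in control cells. Complex III summed to 1069 ± 76.8, 965 ± 115 and 1067 ± 62.8 TPM, against 990.2 ± 36.6 TPM in control cells. For complex IV the sums were 3149 ± 34.7, 2549 ± 332 and 2891 ± 86.6 TPM, against 2784 ± 318 TPM in control cells, and for complex V 3553 ± 205, 3175 ± 209 and 3397 ± 110.6 TPM, against 3500 ± 135 TPM. The complex IV sum of palbociclib 3, 2176 TPM, and that of control 1, 2423 TPM, were the lowest of the 12. Without these libraries, the sum over all members was 11804 and 12309 TPM in palbociclib cells, against 12505 and 12796 TPM in control cells, and the complex IV sum was 2660 and 2811 TPM, against 2905 and 3023 TPM. In RNA of a whole culture, fewer cells expressing a gene and less of its RNA per cell cannot be told apart.

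**Figure D3:**
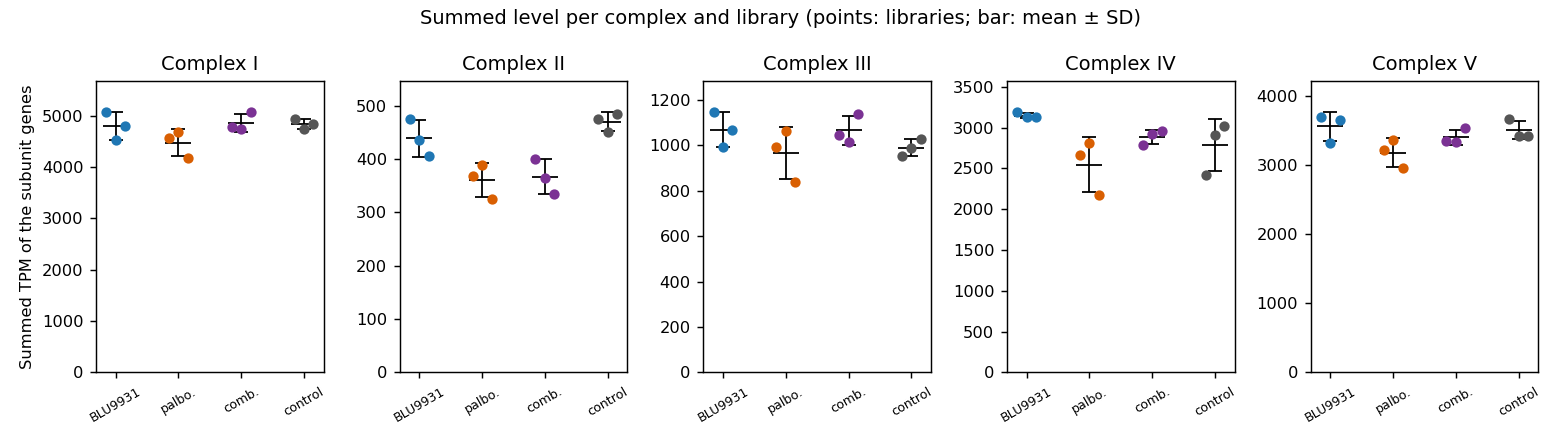
Summed deposited TPM of the subunit genes (vertical axes, from 0) per complex in BLU9931, palbociclib, combination and control cells; points are libraries 1 to 3 and bars the mean ± SD. In complex II the 6 palbociclib and combination libraries, 326 to 400.1 TPM, lie below the 3 control libraries, 450.3 to 485 TPM; in complex IV palbociclib 3 and control 1 lie below their groups.

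The 2 libraries that lay apart did so for the members as well, in step with base composition. Across the 77 members with a mean of at least 5 CPM, the log2 ratio of palbociclib 3 to the other palbociclib libraries had a Spearman correlation of -0.79 with the GC content of the transcripts, and that of control 1 to the other control libraries -0.67. The combination libraries 1, 2 and 3 had -0.40, -0.48 and 0.57, the other palbociclib and control libraries lay between 0.59 and 0.75, and the 3 BLU9931 libraries lay between -0.13 and 0.06. These points share a library and are given as a description. Members rich in GC, such as NDUFS7, COX8A and ATP5D, were low in these libraries: ATP5D, the delta subunit of the ATP synthase head, was at 17.8, 16.3 and 7.36 CPM in palbociclib cells, against 9.42, 17.9 and 21.6 CPM in control cells. With offsets for GC content 3 members rose and 19 fell in palbociclib cells, and 10 rose and 13 fell in the combination, against control, where 35.1% and 44.1% of all genes were called. What part of the changes moves with base composition was not tested beyond these alternatives.

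**Figure D4:**
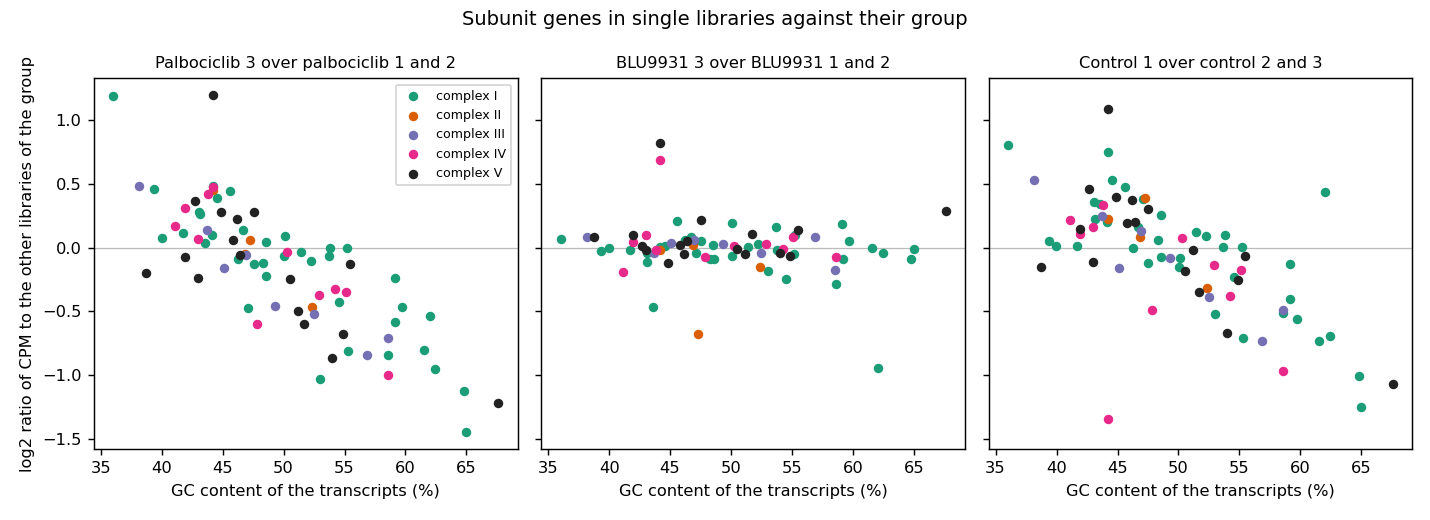
Log2 ratio of a member's CPM in 1 library to the mean of the other libraries of its group (vertical axis) against the GC content of its transcripts in percent (horizontal axis), for palbociclib 3, BLU9931 3 and control 1; points are members, coloured by complex. The ratio falls with GC content in palbociclib 3 and control 1 (Spearman -0.79 and -0.67), and BLU9931 3 shows -0.13.

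The genes around the subunits were taken from lists of known function. Of 47 tested assembly factors, which build the complexes, 1 rose and 6 fell in palbociclib cells and 1 rose and 8 fell in combination cells, against control. These are 14.9% and 19.1% of the list, below the 20.6% and 31.7% of all tested genes called in the same comparisons. COA7, a factor of complex IV assembly, averaged 17.8 ± 3.16 and 18.2 ± 0.38 CPM in palbociclib and combination cells, against 31.9 ± 2.19 CPM in control cells, a log2 change of -0.84 (adjusted p = 0.0012) and -0.81 (adjusted p = 0.000762). NDUFAF2 of complex I and BCS1L, which inserts the Rieske protein UQCRFS1 into complex III, fell in both groups as well, although BCS1L was no longer called in either without control 2 (adjusted p of 0.0667 and 0.0551). The median log2 change of the list was -0.09 for palbociclib and -0.03 for the combination, close to those of the subunits, -0.13 and 0.00.

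Of 18 genes of the citric acid cycle and pyruvate dehydrogenase, which feed NADH and succinate to the chain, 0 rose and 6 fell in palbociclib cells and 1 rose and 4 fell in combination cells, against control, or 33.3% and 27.8% beside 20.6% and 31.7% of all tested genes. FH, fumarase, which acts on the product of complex II, averaged 92.1 ± 12.4 and 81.3 ± 1.28 CPM in palbociclib and combination cells, against 167 ± 24.5 CPM in control cells (log2 -0.86, adjusted p = 0.00084, and -1.04, adjusted p = 0.000108). PDHA1, a subunit of pyruvate dehydrogenase, averaged 162 ± 1.79 and 154 ± 1.45 CPM, against 258 ± 26 CPM in control cells (log2 -0.67 and -0.75, adjusted p = 0.000343 and 6.8e-05). IDH2, mitochondrial isocitrate dehydrogenase, also fell in the combination against palbociclib alone, at 45.0 ± 2.42 CPM in combination cells, against 74.0 ± 12.7 CPM in palbociclib cells (log2 -0.72, adjusted p = 0.0108). That call ended without palbociclib 2, combination 1 or combination 2 (adjusted p between 0.0555 and 0.0739).

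Of 16 genes of coenzyme Q synthesis and electron carriers, 0 rose and 3 fell in palbociclib cells and 3 rose and 3 fell in combination cells, or 18.8% and 37.5% beside the same shares of all genes. PDSS1, which makes the side chain of coenzyme Q, fell in both (log2 -0.79 and -0.95, adjusted p = 0.00162 and 0.000248). Of 17 regulators of mitochondrial biogenesis, 1 rose and 3 fell in each group, 23.5% in both cases, beside 20.6% and 31.7% of all tested genes. PPARGC1B, a coactivator of subunit genes, averaged 11.8 ± 1.03 and 7.66 ± 3.81 CPM in palbociclib and combination cells, against 29.4 ± 0.85 CPM in control cells (log2 -1.31, adjusted p = 0.0108, and -1.94, adjusted p = 0.000681). PPARGC1A, its relative, rose (log2 1.00, adjusted p = 0.0279, and 1.38, adjusted p = 0.00322) at a low level, 4.04 ± 1.38 and 5.24 ± 0.32 CPM, against 2.03 ± 0.76 CPM in control cells. The palbociclib call of PPARGC1A ended without control 2, control 3 or palbociclib 3 (adjusted p between 0.0722 and 0.0915), and that of PPARGC1B without control 1 and palbociclib 3 together (adjusted p = 0.0587).

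Of the 13 subunit genes of mitochondrial DNA, 0 were called by edgeR in palbociclib cells against control, where 20.6% of all tested genes were called. By the same test 1 had an unadjusted p under 0.05, where 6888 of the 20612 tested genes did. In combination cells 0 rose and 2 fell against control, 15.4% of them, where 31.7% of all tested genes were called. MT-ND4, a proton-pumping subunit of complex I, averaged 13710.5 ± 1162 CPM in combination cells, against 19539 ± 975 CPM in control cells (log2 -0.51, adjusted p = 0.00319), and MT-ND4L, encoded beside it, changed by -0.50 (adjusted p = 0.036). Leaving out control 1, control 3, combination 2 or combination 3 ended that call (adjusted p between 0.0634 and 0.0977). Against BLU9931 alone, 1 rose and 1 fell in the combination, where 27% of all tested genes were called. Against palbociclib alone, only MT-ND4 was called in the combination, a fall, where 3.82% of all tested genes were called. It ended under 14 of the 24 alternatives. In the combination against palbociclib, the median was -0.27 over the mitochondrial genes and 0.16 over the nuclear members. The difference between these medians was not tested.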

How the data were processed

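Per the labels' protocols, RNA of H520 cells was made into mRNA libraries. Per the submitters' processing notes, Trimmomatic 0.36, HISAT2 2.0, bedtools 2.26.0 and StringTie 1.3.3b were used, and a mouse build is named, although the deposited table holds human gene IDs at GRCh38 positions (85 of the 88 members match GENCODE 29). The authors deposited counts per gene, used as they stood; they also deposited TPM, used for levels, and FPKM, used with TPM as alternatives on log2(value + 1). How reads were counted and whether by strand is not given in the sources used here.

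All 12 libraries were fitted at once with edgeR 4.0.16 (R 4.3.3; filterByExpr, TMM, robust quasi-likelihood F-test, two-sided, 8 residual degrees of freedom, 1 term per group), and p-values were adjusted by Benjamini and Hochberg over 20612 genes, with a threshold of 0.05. Errors are SE of log2 changes or SD over libraries. Alternatives used DESeq2 1.42.0, limma 3.58.1, other scalings and filters, offsets for GC content, a replicate block, the compared groups alone, and each library left out. The code was tested on simulated data. The members, lists and alternatives were chosen with earlier results of these data known. The rule for naming members took, per comparison and direction, the 6 with the smallest adjusted p, and the catalytic cores and isoform families. Per complex it also took the largest change in the combination against control among those with at least 5 CPM. Not every core or isoform member is given above. Those left out include NDUFV2, NDUFS3, NDUFS8, UQCRC2, ATP5C1, ATP5E, COX6B1 and COX7B. NDUFS5, NDUFA9, ATP5H, ATP5J2, NDUFA5 and UQCRB are named outside that rule, after their values were seen. A result of 1 member is not reported here.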

Additional observations from a re-analysis of the deposited data

How the results depend on the processing

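The counts of called members moved with several choices. The share of all genes called is given above for only some of these fits. Whether the counts of members move more than those of all genes was not tested. Against control, palbociclib (12 calls) gave 7 without a filter, 22 with GC offsets, 21 without control 1 and palbociclib 3, 3 with its own groups alone, and 7 to 15 without 1 library. The combination (10 calls) gave 5, 23 and 21 under the first 3 of these, and 6 to 13 without 1 library. Against BLU9931 the combination (15 calls) gave 9, 27 and 35, 29 with its own groups alone, and 6 to 21 without 1 library. Against palbociclib (0 calls) it gave 7 with GC offsets, 2 with DESeq2, 5 without both libraries, and 0 to 1 without 1 library. The interaction (0 calls) gave 3, 3 and 8, and 0 to 3. BLU9931 stayed at 0 throughout. Deviations of same-numbered libraries from their groups had correlations from -0.33 to 0.15. The labels do not state a pairing, and 3 libraries per group cannot decide whether the numbers pair samples. The main fit used no pairing. A replicate block gave 7 calls for palbociclib and 6 for the combination against control. With GC offsets as well it gave 22 and 23, 24 for the combination against BLU9931, 6 against palbociclib and 2 for the interaction. Reversed values were those of NDUFS7 in the combination against control (0.01; -0.33 with GC offsets, -0.33 with the block as well) and NDUFA9 in palbociclib (-0.36; 0.0042 on TPM and 0.018 on FPKM with limma). The cause was not tested. Low counts kept 8 members out of every test, and ATP5S, at 1.99 to 23.7 CPM, differed 8.62-fold between libraries of 1 group.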

Other observations

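ATP5S split within groups: it was at 1.99, 16.4 and 16.2 CPM in BLU9931 cells, 17.9, 2.79 and 23.7 CPM in palbociclib cells, 3.22, 2.31 and 2.42 CPM in combination cells, and 19.3, 15.9 and 2.24 CPM in control cells. Its fitted change for the combination against control, -2.24 on the log2 scale, had an SE of 0.93 and an adjusted p of 0.0885. COX7A2L, a factor that joins complexes III and IV, was at 50.5, 46.8 and 78.5 CPM in BLU9931 cells, 50.6, 86.4 and 95.4 CPM in palbociclib cells, 58.2, 97.0 and 58.4 CPM in combination cells, and 29.5, 71.6 and 78.3 CPM in control cells, so that its libraries of each group spread more than the groups differed. The highest library exceeded the lowest by more than 1.5 times for 5 of 77 members in BLU9931 cells, 21 of 77 in palbociclib cells and 4 of 76 in combination cells, against 16 of 77 in control cells. The neuroendocrine marker NCAM1 averaged 55.0 CPM in BLU9931 cells, 13.4 CPM in palbociclib cells and 10.6 CPM in combination cells, against 46.4 CPM in control cells; its part in the changes of the subunit genes was not tested.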
